A study of Arabidopsis thaliana with 12 samples.

Results

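The genes described here build, loosen or remodel the plant cell wall. They are the 36 genes, each read by 1 probe set tied to that gene alone, whose symbol names the expansin (EXPA, EXPB), expansin-like (EXLA, EXLB), xyloglucan endotransglucosylase/hydrolase (XTH), cellulose synthase (CESA), cellulose synthase-like (CSL), pectin methylesterase (PME), arabinogalactan protein (AGP) or fasciclin-like arabinogalactan protein (FLA) families. Genes were taken by symbol and not by measured value, though the families were chosen with earlier results of these data known. These 36 come from 13350 genes with such a probe set, on arrays with 22746 probe sets that are not controls. They are 10 EXPA, 4 EXPB, 4 expansin-like, 9 XTH and 8 CSL genes and PME61, and no CESA, AGP or FLA gene was analysed here. RNA came from whole Arabidopsis thaliana seedlings of age 14 days, grown in liquid MS medium in constant light at 23 °C. The 4 groups of 3 arrays were wild type Col-0 given water, wild type given chitooctaose at 1 uM, a mutant of the chitin receptor in the Col-0 background given water, and that mutant given chitooctaose, each for 30 minutes. Chitin strengthens the walls of fungi, and chitooctaose is a short, soluble chain of it. The labels name neither the receptor gene nor the allele of the mutant, nor how many seedlings went into an array.

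The growing plant wall is a mesh of cellulose microfibrils tied by xyloglucan and set in pectin. Alpha- and beta-expansins loosen the contacts between these polymers without cutting them, and XTH enzymes cut xyloglucan chains and rejoin them. Several groups of CSL enzymes, though not all, build the backbones of xyloglucan and other hemicelluloses, and pectin methylesterases change the charge of pectin. Expansin-like proteins share the expansin fold, and their action on the wall is not established. Wall loosening goes with cell growth, and the wall is also the surface that fungi meet, so both growth and defence bear on these families.

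Each array gives a linear intensity for every probe set, and array medians ran from 177.5 to 200.5. Within groups the correlation between arrays, taken across probe sets, was 0.984 to 0.993. Changes are differences of mean log2(intensity + 16), so those of dim genes come out smaller than the ratio of their intensities, and ± after a log2 value is the standard error of the fit. A change counted as called where limma gave an adjusted p (Benjamini-Hochberg, over all 22746 probe sets) below 0.05. The number of arrays limits the precision, and arrays titled as biological replicates may share cultures, in which case p-values measure only the spread between arrays. In whole seedlings, fewer cells of a type and less RNA per cell cannot be told apart. In the annotation used, which leaves 8730 probe sets unnamed and ties 503 to several genes, none of the 6 root hair markers or 7 xylem markers listed for this work had a probe set of its own, and of 5 leaf photosynthesis markers only RCA, the Rubisco activase gene, did. RCA stood between 13513 and 16002 on all 12 arrays and was called in no comparison. No probe set is tied to the known chitin receptor gene CERK1 here, so it gave no check of the genotype labels. Of the 36 genes 11 lay in the dimmest 40% of probe sets, and all 36 were tested.

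The first question is which wall genes respond to chitooctaose in wild type. Of the 36 genes 12 changed within 30 minutes. Of 9 XTH genes XTH18 and XTH19 rose and XTH26 fell, of 4 expansin-like genes EXLA3 and EXLA1 rose, of 8 CSL genes CSLC04 rose, and of 10 alpha-expansins 6 fell and none was called higher, although EXPA21 was when wild type chitooctaose replicate 3 was left out. The 5 increases make up 13.9% of the genes, where 8.82% of all probe sets were called higher, and the 7 decreases 19.4%, where 10.1% were called lower. In both directions together 33.3% were called, against 18.9% of all probe sets. The median log2 change was -0.08 over the 36 genes and -0.04 over all probe sets.

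XTH18 had the largest increase. Its intensity was 1621, 1722 and 1497 in wild type water and 4516, 4849 and 5060 with chitooctaose, a rise of 1.57 ± 0.08 on the log2 scale (adjusted p = 9.2e-11) or 2.98-fold by mean intensity. The ranges lay far apart, the lowest chitooctaose array being above every water array. XTH19, another enzyme of xyloglucan cutting and rejoining and the neighbour of XTH18 on chromosome 4 with no gene between them in the gene table, stood at 1816, 1878 and 1689 in water and at 2659, 2930 and 3093 with chitooctaose. It rose by 0.68 ± 0.08 (adjusted p = 4.4e-06), again with no overlap. The sequences of the probes were not used here, so how far either probe set also reads the transcript of the other was not tested.

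CSLC04 codes for a glucan synthase that makes the xyloglucan backbone. Its intensity was 1252, 1261 and 1107 in water and 2556, 2819 and 2683 with chitooctaose. The rise was 1.15 ± 0.09 (adjusted p = 1.9e-08), and the groups did not overlap. The other 4 measured genes of the CSLC group and the 3 CSLA and CSLD genes were not called. Those 7 genes had log2 changes from -0.26 to 0.18, with 0 at an unadjusted p under 0.05.

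Among the expansin-like genes EXLA3 moved most. It stood at 68.2, 83 and 80.3 in water and at 190, 160 and 172 with chitooctaose, and rose by 1.03 ± 0.15 (adjusted p = 7.5e-05), or 2.25-fold by mean intensity. EXLA1, the gene next to EXLA3 on chromosome 3, stood at 1161, 1248 and 1244 in water and at 1549, 1936 and 2141 with chitooctaose, a rise of 0.60 ± 0.10 (adjusted p = 0.00016). Chitooctaose arrays were above water arrays in each case, though the 3 chitooctaose values of EXLA1 were widely spread. EXLA2, on chromosome 4, had a log2 change of -0.08 ± 0.10 and EXLB1 one of 0.14 ± 0.10, and neither was called.

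**Figure D1:**
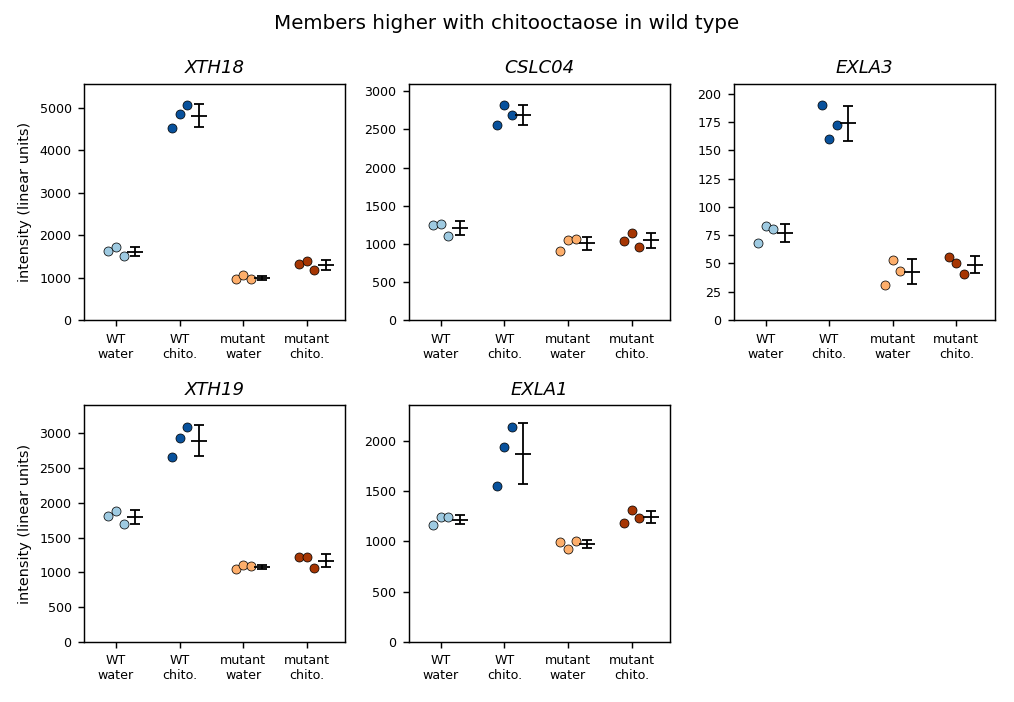
Intensity (linear units) of the 5 genes that rose with chitooctaose in wild type, 1 panel per gene, in the 4 groups (WT, wild type; chito., chitooctaose). Points are the 3 arrays of a group and the bar beside them is the mean and SD. In XTH18 the wild type chitooctaose arrays sit between 4516 and 5060, and no other array is above 1722.

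XTH26, an XTH gene known from root hairs, had the largest decrease. Its intensity was 227, 260 and 252 in wild type water and 103, 142 and 133 with chitooctaose, so it fell by 0.90 on the log2 scale (SE 0.12, adjusted p = 2.2e-05), to 0.51 of its mean in water. Every chitooctaose array lay below every water array.

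The alpha-expansins that fell, all wall-loosening proteins, were EXPA9, EXPA8, EXPA18, EXPA7, EXPA15 and EXPA4. EXPA9 stood at 335, 338 and 359 in water and at 175, 212 and 238 with chitooctaose, and fell by 0.69 (SE 0.11, adjusted p = 0.00021). EXPA8 went from 755, 710 and 658 to 417, 475 and 469, and fell by 0.62 (SE 0.09, adjusted p = 3.8e-05). In both the treated arrays lay below all untreated ones.

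EXPA18 and EXPA7 are known for expression in root hair cells, where they take part in hair outgrowth. EXPA18 stood at 666, 674 and 586 in water and at 484, 444 and 356 with chitooctaose, and fell by 0.58 (SE 0.11). EXPA7 stood at 200, 209 and 178 in water and at 107, 144 and 129 with chitooctaose, and fell by 0.57 (SE 0.12). Their adjusted p-values were 0.00097 and 0.0016, and the groups did not overlap.

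EXPA15 was at 713, 709 and 616 in water and at 469, 532 and 528 with chitooctaose, a fall smaller than those above, and it fell by 0.40 (SE 0.08, adjusted p = 0.0021). The smallest called change was that of EXPA4, at 875, 917 and 749 against 662, 669 and 723, which fell by 0.30 (SE 0.08, adjusted p = 0.017). The call of EXPA4 rested on few arrays, since it was lost in 3 of 6 fits that left out an array (without wild type chitooctaose replicate 2, wild type water replicate 1 or wild type water replicate 2; adjusted p from 0.0038 to 0.11), and in the fit on the wild type arrays alone (adjusted p = 0.059).

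**Figure D2:**
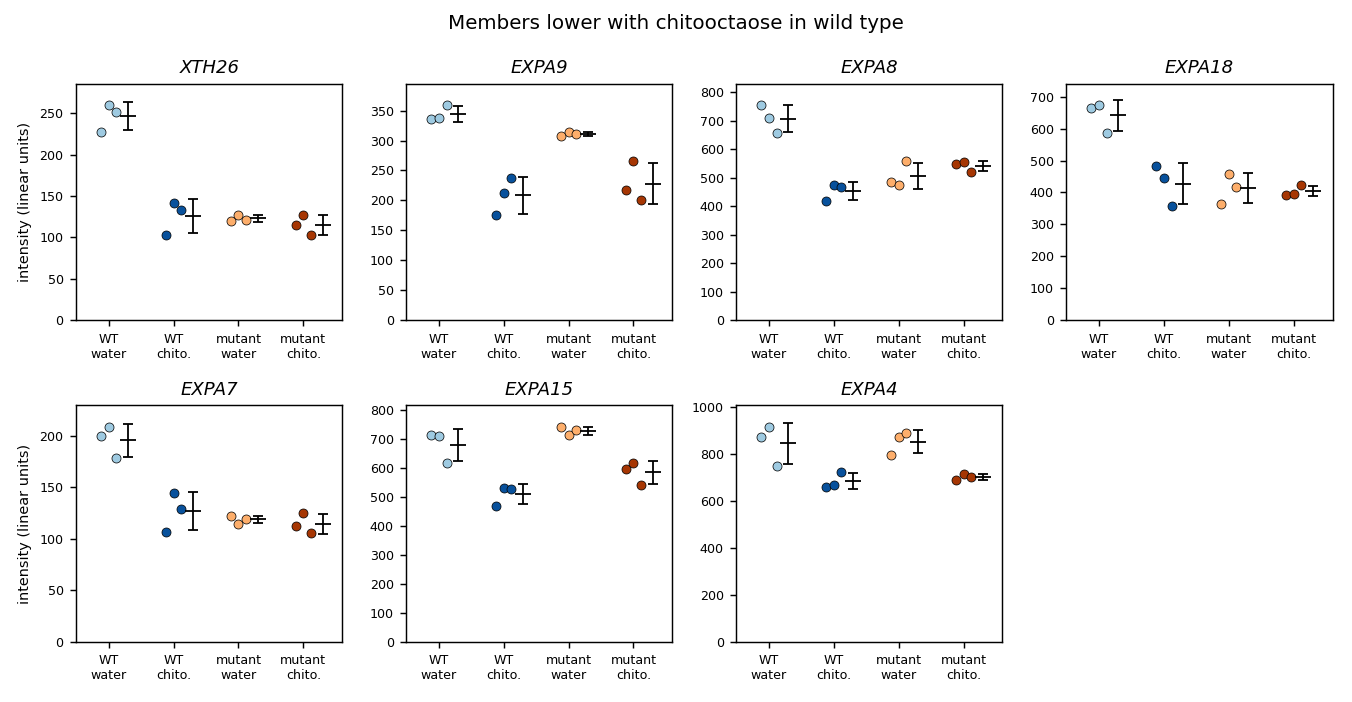
Intensity (linear units) of the 7 genes that fell with chitooctaose in wild type, drawn as points for the 3 arrays of each of the 4 groups, with the mean and SD beside them. In XTH26, EXPA8, EXPA18 and EXPA7 the wild type water arrays are the highest of the 12, while in EXPA9, EXPA15 and EXPA4 the water arrays lie above the chitooctaose arrays within each genotype.

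The other 24 genes did not pass the test in wild type. The 4 remaining alpha-expansins EXPA16, EXPA20, EXPA21 and EXPA24 had log2 changes from -0.26 to 0.32. Of the 4 beta-expansins limma called 0, and 1 had an unadjusted p under 0.05, EXPB3 with a log2 change of -0.23 ± 0.11. EXPB1 (-0.24) and EXPB2 (-0.28) were near it in size, and EXPB5 was at 0.20. Of the 6 uncalled XTH genes XTH16, XTH20, XTH21, XTH32 and XTH33 lay between -0.13 and 0.09. XTH29 had the largest uncalled value, 0.45 ± 0.20 (adjusted p = 0.14), at intensities of 11.3 to 39.6 over all 12 arrays, where a change is hard to detect. PME61, whose product is a pectin methylesterase, was at -0.06 ± 0.18.

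In the receptor mutant the same treatment gave few calls. XTH18 alone of the 36 genes was called, which is 2.78% where 1.49% of all probe sets were called and 0.721% were called higher. It stood at 964, 1054 and 972 in mutant water and at 1321, 1393 and 1174 with chitooctaose, and rose by 0.37 ± 0.08 (adjusted p = 0.024), 1.30-fold by mean intensity where wild type gave 2.98-fold. The groups did not overlap, yet the call was lost in 4 of 6 fits without an array (mutant chitooctaose replicate 1 or 2, mutant water replicate 1 or 3; adjusted p from 0.013 to 0.12) and without the mean-variance trend (adjusted p = 0.11).

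Of the other genes that rose in wild type, CSLC04 had a log2 change of 0.06 in the mutant (95% interval -0.13 to 0.24), XTH19 of 0.11 (-0.06 to 0.27) and EXLA3 of 0.16 (-0.16 to 0.48). These intervals lie wholly below the wild type estimates of the same genes. EXLA1 was at 0.35 ± 0.10, with mutant arrays of 990, 925 and 1007 in water and 1187, 1312 and 1232 with chitooctaose. Its arrays did not overlap, but with an adjusted p of 0.096 it was not called.

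The alpha-expansins of the wild type response had unlike values in the mutant. None was called there in the main fit, and the genes were not tested against each other. EXPA7 was at -0.05 ± 0.12, EXPA18 at -0.02 ± 0.11 and EXPA8 at 0.10 ± 0.09, as was XTH26 at -0.08 ± 0.12. EXPA9, EXPA15 and EXPA4 were at -0.43 ± 0.11, -0.31 ± 0.08 and -0.27 ± 0.08, with adjusted p-values of 0.076, 0.086 and 0.15. EXPA9 stood at 308, 314 and 310 in mutant water and at 218, 266 and 200 with chitooctaose, without overlap. Limma called 0 of the 36 genes lower in the mutant (0.769% of all probe sets were), where 3 had an unadjusted p under 0.05, namely these 3. Under quantile normalization or median centring 5 genes were called in place of 1, with XTH20 and EXLA1 higher and EXPA9 and EXPA15 lower besides XTH18. The share of all probe sets called under these settings is not given here, so the 5 cannot be set against it. EXLA1 was also called in the fit on the mutant arrays alone (adjusted p = 0.026), and EXPA9 without the dimmest 40% of probe sets (0.048) and without mutant chitooctaose replicate 2 (0.034).

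**Figure D3:**
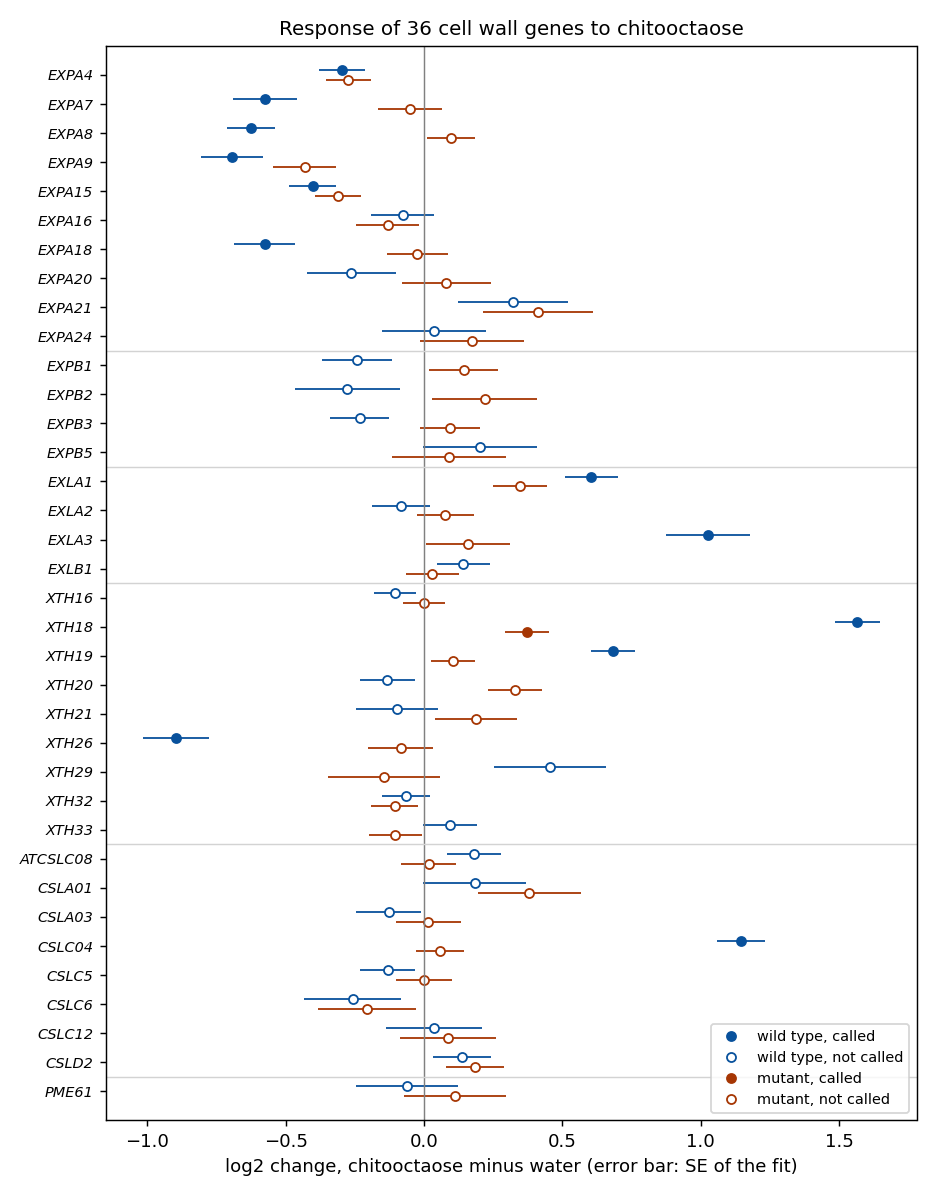
Log2 change with chitooctaose for each of the 36 genes in wild type (blue) and in the mutant (brown), by family from EXPA at the top to PME61, with standard errors. Filled points were called at an adjusted p under 0.05. In wild type 12 points are filled and in the mutant only that of XTH18.

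Subtracting the wild type response from the mutant response tests whether the responses themselves differ. This difference was called for 9 of the 36 genes, 4 lower and 5 higher, which is 25.0% against 11.3% of all probe sets (6.62% lower and 4.66% higher). The median difference was 0.10 over the 36 genes and 0.02 over all probe sets. Of the 5 genes that rose in wild type 4 had a called negative difference, XTH18 of -1.20 ± 0.11 (adjusted p = 6.4e-07), CSLC04 of -1.09 ± 0.12, EXLA3 of -0.87 ± 0.21 and XTH19 of -0.58 ± 0.11. EXLA1 did not (-0.26, 95% interval -0.54 to 0.03), though without wild type chitooctaose replicate 1 its difference was -0.39 and called (adjusted p = 0.012). Of the 7 that fell 4 had a called positive difference, XTH26 of 0.81 ± 0.17 (adjusted p = 0.003), EXPA8 of 0.72 ± 0.12, EXPA18 of 0.55 ± 0.15 and EXPA7 of 0.52 ± 0.16. For EXPA9, EXPA15 and EXPA4 the differences were 0.26 (95% interval -0.08 to 0.60), 0.09 (-0.16 to 0.34) and 0.02 (-0.22 to 0.27), and none was called. XTH20, an XTH gene expressed in roots and called in neither genotype alone, had a difference of 0.46 ± 0.14 (adjusted p = 0.042).

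The 3 smallest of these called differences were close to the threshold. That of EXPA7 (adjusted p = 0.0499) was lost in 9 of 12 fits without an array, all but those without wild type chitooctaose replicate 2, wild type water replicate 3 or mutant chitooctaose replicate 3 (adjusted p from 0.028 to 0.13), and with a pseudocount of 1. That of EXPA18 (adjusted p = 0.027) was lost in 6, without wild type or mutant chitooctaose replicate 3, wild type water replicate 1 or 2 or mutant water replicate 1 or 3 (0.0059 to 0.085). That of XTH20 was lost in 11, all but the fit without wild type chitooctaose replicate 3 (0.0041 to 0.10). The calls of these 3 genes were also lost without the mean-variance trend. The level of a gene in mutant water enters each such difference directly.

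Setting the water groups of the genotypes against each other asks whether wall genes differ without chitin. Of the 36 genes 11 were lower in the mutant and none higher, which is 30.6% of them, where 10.3% of all probe sets were called, 6.3% lower and 4.03% higher. At an unadjusted p under 0.05 limma gave 15 lower and 1 higher, the dim XTH29. The median difference was -0.20 over the 36 genes and -0.00 over all probe sets. All 11 kept their direction under quantile normalization and median centring. Lower were XTH26, XTH20, XTH19, XTH18, EXLA3, EXPA7, CSLD2, EXPA18, EXPA8, EXLA2 and EXLA1, that is, 4 of 9 XTH genes, 3 of 4 expansin-like genes, 3 of 10 alpha-expansins and 1 of 8 CSL genes.

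XTH26 stood at 120, 127 and 121 in mutant water against 227, 260 and 252 in wild type water, a log2 difference of -0.92 ± 0.12 (adjusted p = 4.9e-05). For XTH20 the values were 212, 223 and 215 against 390, 416 and 411, a difference of -0.86 ± 0.10 (adjusted p = 1.5e-05). The means of the mutant were about 0.50 and 0.53 of those of wild type, with tight groups and no overlap. XTH19 (1047, 1107 and 1089 against 1816, 1878 and 1689) and XTH18 (964, 1054 and 972 against 1621, 1722 and 1497) differed by -0.72 ± 0.08 and -0.69 ± 0.08. The 2 neighbours were thus lower by like amounts in water, though their increases with chitooctaose in wild type were 1.57 and 0.68.

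CSLD2 belongs to the CSLD group, needed for root hair growth. It stood at 521, 625 and 614 in mutant water against 944, 959 and 840 in wild type, a difference of -0.63 ± 0.10 (adjusted p = 0.00059), and it was not called in either response. EXPA7 (122, 115 and 120) and EXPA18 (364, 459 and 416) were lower in mutant than in wild type water by -0.65 ± 0.12 and -0.62 ± 0.11 on the log2 scale. EXPA8, at 484, 476 and 559, differed by -0.47 ± 0.09. In all 4 genes the mutant water arrays lay below every wild type water array, as they also did in the uncalled EXPB1, EXPB3 and PME61.

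Of the expansin-like genes EXLA3 was at 31.3, 53.3 and 43.4 in mutant water, a difference of -0.68 ± 0.15 (adjusted p = 0.0064). EXLA2 was at 225, 241 and 253 against 337, 318 and 295 (-0.38 ± 0.10) and EXLA1 lay at -0.32 ± 0.10. These last calls were less firm, since that of EXLA1 (adjusted p = 0.043) was lost in 6 of 6 fits without an array (adjusted p from 0.072 to 0.17) and without the mean-variance trend, and that of EXLA2 (adjusted p = 0.026) in 4, without replicate 1 or 2 of either genotype in water (0.034 to 0.12). CSLC04 was at -0.26 ± 0.09 in water (adjusted p = 0.066) and was called lower under quantile normalization, under median centring, in the fit on the water arrays alone (0.033) and without wild type water replicate 3 (0.044). PME61 had -0.43 ± 0.18 (adjusted p = 0.17, and 0.048 in the fit on the water arrays alone), EXPB1 -0.33 ± 0.13 (adjusted p = 0.12) and EXPB3 -0.26 ± 0.11 (adjusted p = 0.17). EXPA4, EXPA15 and EXPA9 differed little in water, by 0.01 ± 0.08, 0.10 ± 0.08 and -0.14 ± 0.11.

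**Figure D4:**
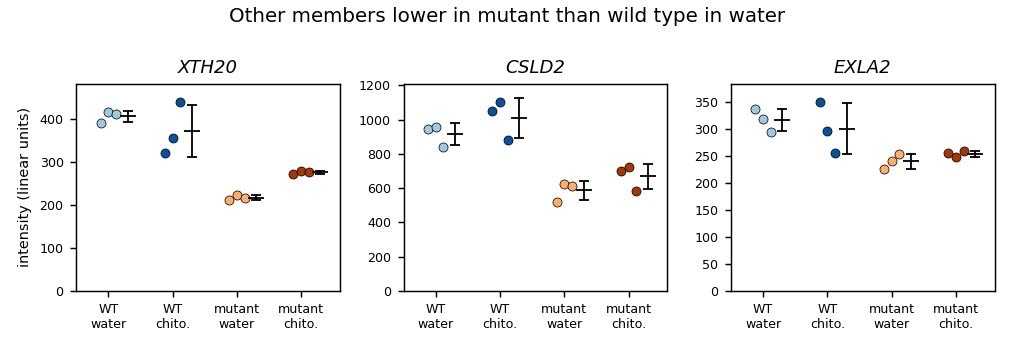
Intensity (linear units) of XTH20, CSLD2 and EXLA2, the genes lower in mutant than wild type water that were not called in the wild type response, as points for the 3 arrays of each group with the mean and SD. For CSLD2 the mutant arrays lie between 521 and 724 and the wild type arrays between 840 and 1100.

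With chitooctaose in both genotypes 8 genes were lower in the mutant, 22.2% of the 36 where 17.3% of all probe sets were called, 9.5% lower and 7.77% higher. Limma called none higher, while 2 had an unadjusted p under 0.05 in that direction. The median was -0.01 over the 36 genes and 0.00 over all probe sets. XTH18 differed by -1.88 ± 0.08 (adjusted p = 7.4e-12), EXLA3 by -1.55 ± 0.15, CSLC04 by -1.35 ± 0.09 and XTH19 by -1.30 ± 0.08. By mean intensity the mutant had 0.27, 0.28, 0.39 and 0.40 of the wild type level. CSLD2 (-0.58 ± 0.10), EXLA1 (-0.57 ± 0.10) and XTH20 (-0.40 ± 0.10) were lower too, as was EXLB1 (-0.30 ± 0.10, adjusted p = 0.043), a call lost in 5 of 6 fits without an array, all but that without wild type chitooctaose replicate 1 (adjusted p from 0.011 to 0.13), under quantile normalization and without the mean-variance trend. EXLA2, at -0.22 ± 0.10, was called lower without wild type chitooctaose replicate 3 (-0.32, adjusted p = 0.041). In the fit on the chitooctaose arrays alone the calls of EXLB1 and XTH20 (adjusted p = 0.056) were lost.

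No alpha-expansin was called here by limma (0 of 10, 2 at an unadjusted p under 0.05). EXPA7 was at -0.13 ± 0.12, EXPA18 at -0.07 ± 0.11 and XTH26 at -0.10 ± 0.12. EXPA8 was at 0.25 ± 0.09 (adjusted p = 0.058) and EXPA15 at 0.19 ± 0.08. The zero count of increases depends on scaling, since under quantile normalization and median centring EXPA8 (0.31 and 0.28) and EXPA15 (0.27 and 0.22) were called higher in the mutant, which makes 2 higher and 7 lower, and 2 higher and 8 lower. EXPA8 was also called higher without the dimmest 40% of probe sets.

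**Figure D5:**
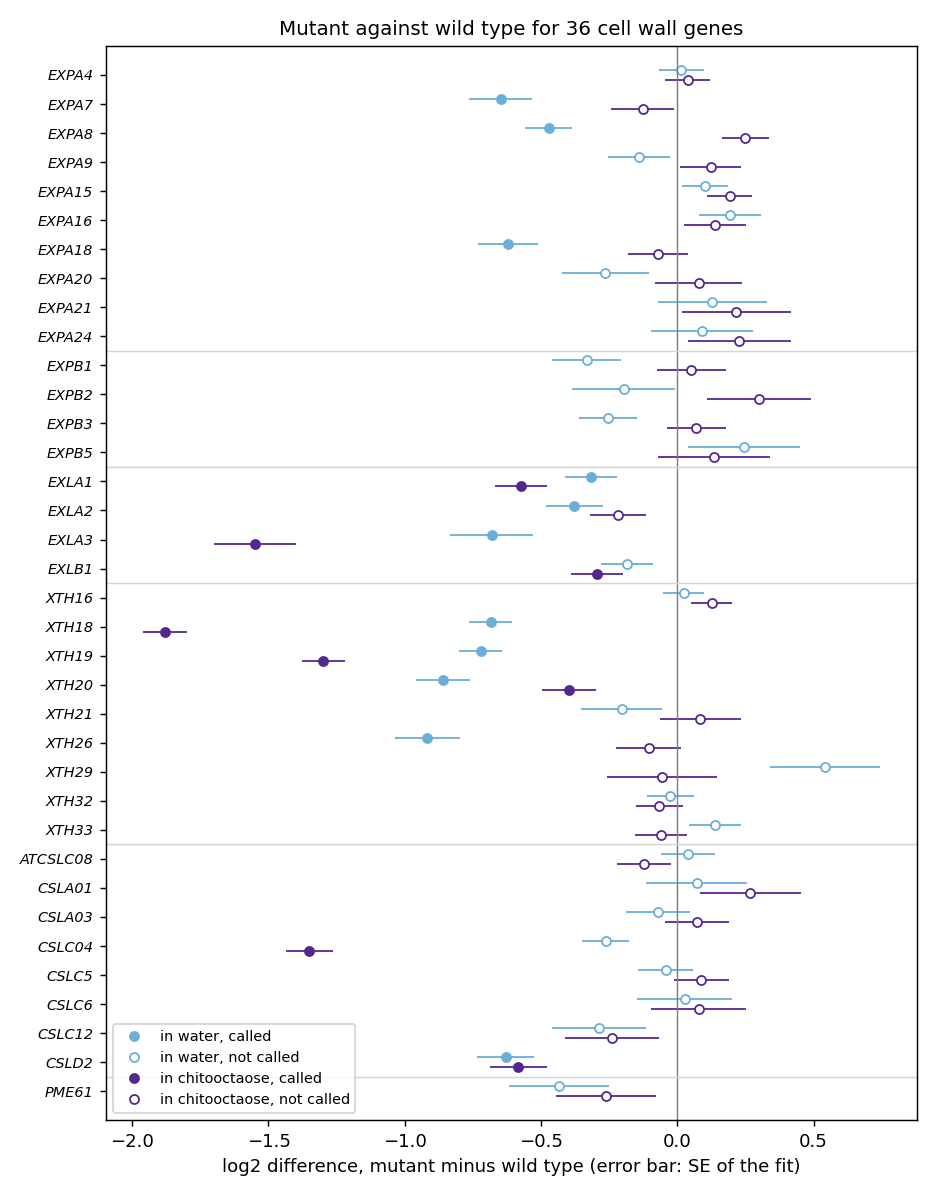
Log2 difference between mutant and wild type for each of the 36 genes, in water (light blue) and in chitooctaose (purple), with standard errors and filled points for called differences. XTH26, EXPA7, EXPA18, EXPA8 and EXLA2 have filled points in water only, CSLC04 and EXLB1 in chitooctaose only, and XTH18, XTH19, XTH20, EXLA1, EXLA3 and CSLD2 in both.

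Set side by side over the 4 groups, the responding genes showed 3 arrangements. In XTH18, XTH19, EXLA3, CSLC04 and EXLA1 wild type with chitooctaose stood highest, and all 6 mutant arrays lay below it, though for EXLA1 the difference of responses was not called. In XTH26, EXPA7, EXPA18 and EXPA8 wild type water stood highest, and the other 9 arrays lay below it, at 103 to 142 for XTH26, 105 to 144 for EXPA7, 356 to 484 for EXPA18 and 417 to 559 for EXPA8. In EXPA9, EXPA15 and EXPA4 the water arrays were the higher ones in each genotype. The wild type response and the genotype difference in water share the wild type water arrays, so a high value of those 3 arrays enters both. Wild type with chitooctaose was therefore also set against mutant water, a comparison chosen after the values were seen. It uses the wild type chitooctaose arrays again, and its value is the wild type response minus the genotype difference in water, both given above. Of the 5 genes that rose 4 were already lower in mutant water, as were 4 of the 7 that fell. It is thus no independent test of either set. All 5 genes that rose in wild type were called higher, as were 9.43% of all probe sets of the 19.6% called in it, XTH18 by 2.25 ± 0.08. Over all probe sets 71.4% of those called higher in the wild type response were called higher again, and 47.5% of those called lower were called lower again. Of the 7 that fell only EXPA9, EXPA15 and EXPA4 were called lower (10.1% of all probe sets were), at -0.55 ± 0.11, -0.50 ± 0.08 and -0.31 ± 0.08. The log2 values of XTH26, EXPA7, EXPA18 and EXPA8 in that comparison were 0.02 ± 0.12, 0.08 ± 0.12, 0.05 ± 0.11 and -0.15 ± 0.09.

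The remaining 20 genes were called in no comparison. Among the XTH genes, XTH32 ran from 656 to 841 over the 12 arrays, XTH16 from 489 to 590 and XTH33 from 180 to 230, each within a narrow range in all 4 groups, and XTH21 ran from 45.2 to 72.3. Of the CSL genes, CSLC6 ran from 290 to 548 and CSLC5 from 343 to 481, both of the group that holds the xyloglucan glucan synthases. CSLA03 (176 to 234) and CSLA01 (47.6 to 111) belong to the mannan synthases, and CSLC12 ran from 70.4 to 138 and ATCSLC08 from 135 to 166.

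Among expansins without a call, EXPA16 ran from 269 to 401 and EXPA20 from 217 to 378. EXPA21 and EXPA24, which lie near each other on chromosome 5 with 4 genes between them, were dim, at 32.5 to 75.2 and 22.2 to 43.8. EXPA21 had the highest value of the mutant response among the 36, 0.41 on the log2 scale against 0.32 in wild type, yet neither was called. Without wild type chitooctaose replicate 3 EXPA21 was called higher in wild type, at 0.58 (adjusted p = 0.028), against adjusted p-values above the threshold in the other 5 fits without an array. Beta-expansins loosen walls as alpha-expansins do, and EXPB3, the brightest of the 4 probe sets, averaged 507 ± 35.2 (SD, n = 3) in wild type water, 432 in wild type chitooctaose, 424 in mutant water and 451 in mutant chitooctaose. EXPB1 had means of 133, 111, 103 and 115 in the same order. For both the mean of wild type water was the highest, with an uncalled difference of responses of 0.33 ± 0.15 and 0.38 ± 0.18 (adjusted p = 0.21 for each). EXPB2 and EXPB5 were dim, at 25.1 to 52.7 and 19.8 to 45.3. PME61 had means of 123, 119, 86.8 and 96.4.

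Since EXPA7, EXPA18, XTH26 and CSLD2 are known from root hairs, other root genes were set beside them, from a list written after the annotation was seen. Of 21 root and root hair genes on it 6 had a probe set tied to them alone. The peroxidase genes AT1G30870, AT4G26010 and AT3G49960 and the endoglucanase gene GH9C1 fell in wild type, by 0.75, 0.53, 0.48 and 0.55, and were lower in mutant water by -0.66, -0.66, -0.89 and -0.57. HRGP1 and AT5G61550 were not called. Over all probe sets 10.1% were called lower in the wild type response, 6.3% in mutant water and 9.5% in the mutant with chitooctaose. The summed intensity of the 6 was 5225 to 6397 in wild type water, 4205 to 4535 in wild type chitooctaose, 3405 to 3930 in mutant water and 3387 to 3800 in mutant chitooctaose. The sum was thus highest in wild type water, as for EXPA7, EXPA18 and XTH26. Unlike in those genes, the sums of wild type chitooctaose lay above all mutant sums. The sums include the uncalled HRGP1, which ran from 649 to 1845 over the 12 arrays, and sums without it are not given here. In chitooctaose AT3G49960 (-0.32) and AT4G26010 (-0.27) were called lower in the mutant, while GH9C1 (0.02) and AT1G30870 (0.12) were not called. CSLD2 was not highest in wild type water, with a mean of 1010 in wild type chitooctaose against 914 in wild type water. The part of root material in the values of these wall genes was not tested. Of 5 genes of photosystem II and its antenna, found by name after the annotation was seen, PSBY, PSBW, LHCB4.1 and LHCB4.2 were called in no comparison. LHCB4.3 rose by 1.03 in wild type and was higher in mutant than wild type water by 0.44 (limma adjusted p = 0.011). Its responses differed by -0.61 (limma adjusted p = 0.013). Of 4 genes found in the same way, by names tied to xylem or laccase, IRX15-L fell by 0.67 in wild type. It was lower in mutant water by -0.72, and LAC16, IRX15 and GUT2 were not called. LAC16 (5.76 to 28.1 over the 12 arrays) and IRX15 (16.6 to 60.9) were dim, where a change is hard to detect.

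Other genes of wall building were seldom tied to a probe set in the annotation used. Of 43 genes in 5 wall lists 6 were, and none of the lists of xyloglucan synthesis and of extensins. Among 3 partners of cellulose synthase, AT1G45688 (CC1) rose in wild type by 0.36 ± 0.09, AT5G42860 (CC2) fell by 0.29 (adjusted p = 0.049) and COB was at -0.07. AT5G42860 was also lower in mutant water (-0.48 ± 0.10), where the 3 mutant arrays were 318, 268 and 287 against 421, 418 and 395. Of 2 receptor kinases of the wall, THE1, which responds to loss of cellulose, was called in neither response (0.27 ± 0.13 in wild type, -0.42 ± 0.13 in the mutant), but the responses differed by -0.69 ± 0.18 (adjusted p = 0.02). With chitooctaose THE1 stood at 590, 927 and 889 in wild type and at 468, 500 and 470 in the mutant (-0.70 ± 0.13). FER was lower in the mutant in water (-0.28 ± 0.07) and in chitooctaose (-0.38 ± 0.07). ADPG1, a polygalacturonase gene and the 1 gene of 12 in the pectin list with such a probe set, was called in no comparison.

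A further 4 genes carry one of the family names only as a synonym in the gene table and so are not among the 36. ATPMEPCRB, a pectin methylesterase gene also called PME41, rose in wild type by 1.09 ± 0.07 (adjusted p = 3.4e-09), from 922, 988 and 860 to 1998, 1986 and 1951. In the mutant it stood at 687, 734 and 759 in water and 683, 689 and 644 with chitooctaose, and the responses differed by -1.20 ± 0.10. AT4G30380, named EXLB2, rose in wild type by 0.65 ± 0.16 and was lower in the mutant in water (-0.92 ± 0.16) and in chitooctaose (-1.08 ± 0.16). EXGT-A3, also XTH27, fell by 0.30 in wild type and had a like value of -0.30 in the mutant (adjusted p = 0.067), where it was not called, with a difference of responses of 0.00 ± 0.11, and AT4G02300 (PME39) was called in no comparison.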

How the data were processed

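Each of the 12 one-colour Affymetrix arrays, 3 per group, took labelled cRNA made from 8 ug of total RNA, per the labels' protocols. The deposited intensity values are linear. Their summarisation, background correction and scaling by the authors are steps not given in the sources used here. No value was below 0, and the array medians differ. The 64 control probe sets were left out, log2(intensity + 16) was taken, and limma 3.58.1 in R 4.3.3 fitted 1 mean per group over 22746 probe sets (moderated by eBayes along the mean-variance trend, with degrees of freedom of 8 residual and 8.3 prior). Tables and plots were made in Python 3.11.15 (matplotlib 3.10.9, pandas 2.3.3).

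The platform annotation ties 13513 probe sets to 1 gene (13436 matched by gene ID in the TAIR10.1 gene table), 503 to several and 8730 to none, which are unnamed here. Symbols came from that table. All 36 genes had 1 probe set and the same symbol in both sources. No coordinates are given, as no build is named for the arrays.

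The genes, lists, comparisons and alternatives were chosen with earlier results of these data known. Genes named are, per comparison, the called ones, up to 12 in each direction, then each family's brightest probe set and, without a call, its lowest p. Other named genes are those of the lists and the rest of the 36. As alternatives, the fit was repeated without the dimmest 40%, with the replicate number as a block, with no trend, with quantile normalization or median centring, and with a pseudocount of 1 or 64, and also on only the groups compared, every probe set of a gene, the annotation's own symbols, and without each array. Sequences and promoter motifs were not analysed here.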

Additional observations from a re-analysis of the deposited data

Results flagged for a closer look

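The response to chitooctaose differed between the genotypes, by the interaction term of the limma fit, for 9 of the 36 wall genes, with 3 arrays per group. This is 25.0% of them, where 11.3% of all probe sets were called. The mutant response minus the wild type response was negative for XTH18 (-1.20), CSLC04 (-1.09), EXLA3 (-0.87) and XTH19 (-0.58). It was positive for XTH26 (0.81), EXPA8 (0.72), EXPA18 (0.55), EXPA7 (0.52) and XTH20 (0.46). The genes with a positive value were all called lower in mutant than wild type water, as were XTH18, XTH19 and EXLA3. That level in mutant water enters each difference directly. The results for EXPA18, EXPA7 and XTH20 are not firm, at limma adjusted p-values of 0.027, 0.0499 and 0.042. Dropping 1 array at a time, in 12 runs, undid the call of EXPA18 in 6, that of EXPA7 in 9 and that of XTH20 in 11. Fitting with no mean-variance trend undid all 3. The 6 remaining calls were kept wherever the gene was tested.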

How the results depend on the processing

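The number of genes called stayed within 1.5 times of 12 in the wild type response, 9 in the difference of responses, 11 between genotypes in water and 8 in chitooctaose, under every alternative run. Without single arrays these counts ran from 11 to 13, 6 to 8, 9 to 11 and 7 to 8, with EXPA21 the added gene of the 13, and the lowest count for the difference of responses arising without wild type water replicate 1 or 2 or mutant water replicate 1 or 3. In the mutant response the count was 1, and it was 5 under quantile normalization and under median centring (3 higher, 2 lower in each), 2 without the dimmest 40% of probe sets, 2 in the fit on the mutant arrays alone, 0 without the mean-variance trend, and 0 to 1 without single arrays. The shares of all probe sets called under these alternatives are not given here, and the cause was not tested. Of 41 calls over the 5 comparisons no called value changed sign under any alternative. In wild type 11 of 12 calls held in all fits without an array and in all other settings that tested the gene. In the difference 6 of 9 did, in water 9 of 11 and in chitooctaose 6 of 8. EXLA3, counted in each, is among the dimmest 40% of probe sets and was not tested in the fit without them. Counts of wild type calls also called against the mutant water arrays, chosen after seeing the data, were 5 higher and 3 lower. With the replicate number as a block (replicate block) the counts were 12, 1, 9, 11 and 8, as without it. Deviations of same-numbered arrays from their group means correlated with r from -0.129 to 0.223, over 0.1 in 6 of 18 pairs. For differently numbered arrays r ran from -0.203 to 0.205. The main fit did not take the numbers as pairs, and these ranges do not settle whether they are. Using every probe set of a gene, or the annotation's own symbols, gives the same 36 probe sets. Among dim genes such as XTH29, EXPA24 and EXPB5, with means under 50, only large changes could be called.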
